A study of Homo sapiens with 12 samples.

Results

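AGO2 was knocked down in My5.LV myeloma cells, which express little CRBN, and the steady-state levels of 372 miRNAs were compared with those of un-treated My5.LV cells. The members were all 372 human miRNA assays of the array, the same 372 as in the whole series, and the comparison used 2 of the 12 arrays, 1 on each side. OCI-My5 is an established human multiple myeloma (MM) cell line. My5.LV cells are OCI-My5 cells infected with the empty lentiviral vector and sorted for GFP, and they are resistant to immunomodulatory drugs. The un-treated array holds RNA of My5.LV cells with no further treatment. The AGO2-sh72 array holds RNA of My5.LV cells infected with lentiviral particles carrying sh72, an shRNA against AGO2 in the pLKO.1 vector, selected with puromycin and harvested after 3 days. Both arrays thus share the GFP vector, and neither was given lenalidomide. The control cells had no second infection and no puromycin, so AGO2 knockdown, infection and selection cannot be told apart on these arrays. The same pair of conditions in My5.CRBN cells, which carry CRBN cDNA and are drug-sensitive, was used for comparison. The AGO2 mRNA and protein are not assays of the array, so the knockdown itself was not measured here.

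A mature miRNA is cut from one arm of an RNA hairpin and works only when it is held by an Argonaute protein, of which AGO2 is the main one that also cleaves RNA. Argonaute keeps one strand of the duplex, the guide, and discards the other, the passenger, and a guide in its pocket is protected from decay. The guide finds its target mRNAs mainly through the seed, bases 2 to 8, so that miRNAs with the same seed form a family.

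Of the 372 assays, 330 were matched by name to mature sequences of RefSeq (GRCh38.p14). The first sequences are shown because they include the largest decrease of all and members of abundant families described below, and the capitals mark the seed. miR-130b-3p, miR-301a-3p and miR-454-3p share the seed AGUGCAA, and let-7a-5p and miR-98-5p share GAGGUAG. miR-17-5p and miR-20a-5p share AAAGUGC. miR-103a-3p and miR-107 share GCAGCAU and are the same at 22 of 23 positions, and let-7a-5p and miR-98-5p are the same at 20 of 22. How far a PCR assay tells such near copies apart was not tested.
miR-301a-3p: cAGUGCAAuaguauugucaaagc
miR-130b-3p: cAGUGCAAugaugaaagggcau
miR-454-3p: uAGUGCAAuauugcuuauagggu
let-7a-5p: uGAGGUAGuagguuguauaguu
miR-98-5p: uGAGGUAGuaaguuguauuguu
miR-17-5p: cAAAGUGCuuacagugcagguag
miR-20a-5p: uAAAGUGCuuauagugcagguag
miR-103a-3p: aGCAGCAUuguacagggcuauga
miR-107: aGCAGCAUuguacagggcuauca

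The next sequences are the 2 arms of single hairpins, shown because the arms moved apart. miR-25, miR-93 and miR-106b lie together within the span of the gene MCM7, from miR-25-3p at chr7:100093571-100093592 to the other end of the cluster at 100094063 (minus strand). miR-191-5p is at chr3:49020672-49020694 within DALRD3, and miR-181c-5p at chr19:13874725-13874746 within NANOS3. In each pair the more abundant arm stands first and the capitals mark the seed of each arm.
miR-106b-5p: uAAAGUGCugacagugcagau
miR-106b-3p: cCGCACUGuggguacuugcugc
miR-93-5p: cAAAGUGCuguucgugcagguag
miR-93-3p: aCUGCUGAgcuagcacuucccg
miR-25-3p: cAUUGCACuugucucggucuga
miR-25-5p: aGGCGGAGacuugggcaauug
miR-191-5p: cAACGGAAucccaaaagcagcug
miR-191-3p: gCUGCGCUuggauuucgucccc
miR-181c-5p: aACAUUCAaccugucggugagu
miR-181c-3p: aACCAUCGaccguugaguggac

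The last sequences are 2 weakly expressed miRNAs that stayed within 3 fold and 2 of the largest changes, 1 in each direction. miR-302c-3p and miR-373-3p, miRNAs of embryonic stem cells, carry the seed AAGUGCU. miR-410-3p (chr14:101065961-101065981) had the largest increase, and miR-32-5p (chr9:109046272-109046293, within TMEM245), with the same seed as miR-25-3p, had the second largest decrease.
miR-302c-3p: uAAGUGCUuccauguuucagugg
miR-373-3p: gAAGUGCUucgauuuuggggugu
miR-410-3p: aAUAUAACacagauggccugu
miR-32-5p: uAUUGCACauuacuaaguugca

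Each value is the threshold cycle (Ct) of 1 well, the PCR cycle at which the signal crosses the threshold, so that a higher Ct stands for less RNA and 1 cycle for a factor of 2. Wells above Ct 35, and those with no Ct, were given a Ct of 35, and the normalized Ct is the Ct less the average of 6 small-RNA control wells on the same array. The log2 fold change is the un-treated minus the AGO2-sh72 normalized Ct, so a negative value means a lower level after AGO2-sh72. On the un-treated array 354 miRNAs had a Ct under 35 and on the AGO2-sh72 array 349, with median Cts of 28.2 and 29.4. With 1 array a side there is no replicate check and no p-value, and in bulk RNA fewer cells with a miRNA and less of it per cell cannot be told apart. As the spread served the SD over the 6 control wells of their own log2 fold changes, 0.51.

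The control wells did not move together. SNORD61, SNORD68, SNORD95 and SNORD96A came up later on the AGO2-sh72 array by 1.13, 1.09, 1.03 and 1.14 cycles, and SNORD72 by 0.668 cycles. RNU6-2, the spliceosomal U6 RNA, came up earlier (Ct 19.6 un-treated, 19.4 with AGO2-sh72). RNU6-2 therefore stood 0.98 above the mean of the 6 wells on the log2 scale, and the SNORD wells between -0.33 and 0.15. The reverse transcription control wells averaged Ct 23.2 on the un-treated array and 23.9 on the other, and the positive PCR control wells 18.95 and 19.04. The part of these shifts in the miRNA results was not tested. Before any normalization the median miRNA came up 1.61 cycles later with AGO2-sh72, and 330 of 372 miRNAs had a higher Ct.

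After normalization, the levels of most miRNAs were lower in AGO2-sh72 treated cells. The median log2 fold change was -0.79, with the middle 50% of miRNAs between -1.56 and 0.04, and 276 of 372 were below 0. The levels of 88 miRNAs (23.7%) were at least 3 fold lower, those of 7 (1.88%) were at least 3 fold higher, and 184 differed by less than 2 fold. The choice of normalizer sets how many pass. With the global mean of 314 miRNAs as normalizer every log2 value rose by 0.86, which left 14 lower and 47 higher, and with RNU6 alone every value fell by 0.98, which gave 201 lower and 1 higher. Differences between miRNAs on the same arrays do not depend on it.

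**Figure D1:**
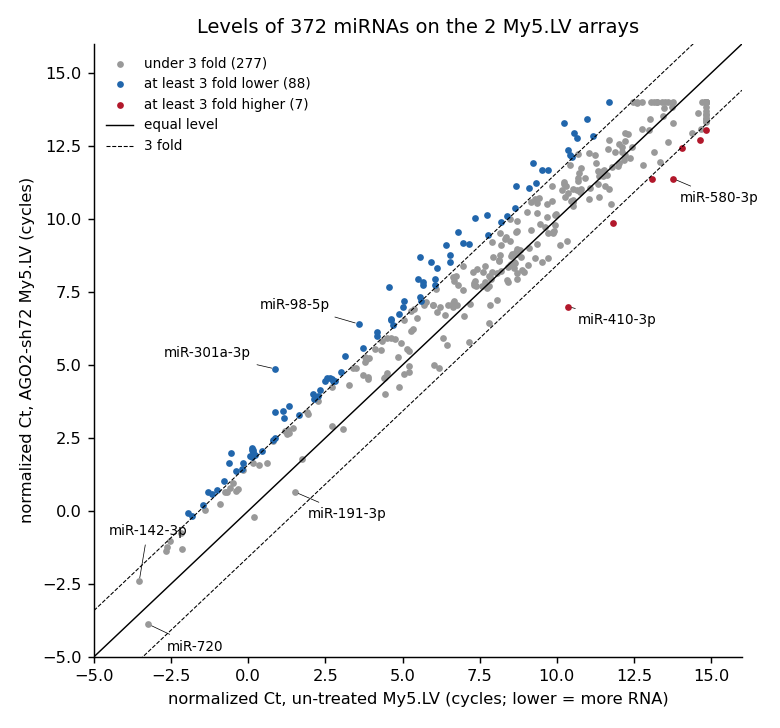
Normalized Ct of 372 miRNAs on the un-treated (horizontal) and the AGO2-sh72 (vertical) My5.LV array, in cycles, where a lower value is more RNA. The 88 miRNAs at least 3 fold lower (blue) lie above the upper dashed line along most of the range, and the 7 at least 3 fold higher (red) lie at the weak end, apart from miR-410-3p.

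The largest decrease was that of miR-301a-3p, an abundant miRNA encoded with miR-454 within the span of SKA2 on chromosome 17. Its Ct was 21.0 un-treated and 25.8 with AGO2-sh72, a log2 fold change of -3.99 (15.9 fold lower). Its normalized Ct of 4.86 with AGO2-sh72 compared with -0.33 to 4.01 on the 10 arrays outside the comparison, so that no other array of the study was as low. The next largest decreases were those of miR-32-5p (Ct 25.7 and 29.7, log2 fold change -3.13) and miR-542-3p (24.7 and 28.7, -3.12). For both, the un-treated level was itself above that of all outside arrays. The normalized Ct of miR-32-5p was 5.56 un-treated and 8.68 with AGO2-sh72, against 5.96 to 7.97 outside. That of miR-542-3p was 4.56 and 7.68, against 5.01 to 6.80. miR-1324 followed at -3.07, near the end of the range with Cts of 30.4 and 34.3, and at -0.80 with a Ct cap of 32. Its un-treated normalized Ct of 10.2 was below the 11.1 to 14.2 of the outside arrays. Its value of 13.3 with AGO2-sh72 lay within that range. miR-98-5p, a let-7 family member encoded within HUWE1 on the X chromosome, went from Ct 23.7 to 27.4 (-2.82).

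Of the 15 largest decreases of miRNAs with a Ct under 35 on each of the arrays, the other 10 lay between -2.76 and -2.42. They were miR-361-5p (-2.76), miR-744-5p (-2.70), miR-33b-5p (-2.69), miR-567 (-2.68), miR-505-3p (-2.60), miR-103a-3p (-2.55), miR-181c-5p (-2.49), miR-199a-5p (-2.45), miR-10a-5p (-2.45) and miR-652-3p (-2.42). For miR-567 the un-treated normalized Ct of 9.24 was below the 9.80 to 12.1 of the outside arrays. Its value of 11.9 with AGO2-sh72 lay within that range. miR-33b lies in an intron of SREBF1, a regulator of lipid synthesis, and miR-103a in introns of pantothenate kinase genes. Of these 10, miR-103a-3p was the most abundant (Ct 19.6 un-treated, 23.0 with AGO2-sh72) and miR-199a-5p the weakest (31.1 and 34.4), which with a Ct cap of 32 was at -0.045. miR-153-3p, at Ct 31.9 un-treated and at the limit of 35 with AGO2-sh72, was at least 5.03 fold lower. With a Ct cap of 32 its call ended and its value turned above 0.

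The decrease was deepest and most uniform among the abundant miRNAs. The miRNAs were put into 5 abundance classes of near equal size by their median normalized Ct over the 10 arrays outside the comparison, which orders assays by Ct and so also reflects their primers. From class 1, the most abundant, to class 5, the least abundant, the median log2 fold changes were -1.63, -1.30, -0.29, -0.35 and -0.01. At least 3 fold lower were 40 of 75, 23 of 74, 11 of 74, 10 of 74 and 4 of 75, beside 23.7% of all miRNAs. At least 3 fold higher were 0, 0, 0, 2 and 5. Because Ct was limited to 35, a miRNA with an un-treated Ct above 32.6 could not be counted as 3 fold lower, which was so for 49 of 75 miRNAs in class 5, for 1 in class 4 and for 0 in classes 1 to 3. The count and the median of class 5 are therefore bounded by the limit, and the fall in counts can be read for classes 1 to 4 only. In class 1, 71 of 75 miRNAs were below 0 and 68 were at least 2 fold lower. The median of class 1 lay 1.62 below that of class 5 on the log2 scale, and this gap, bounded by the Ct limit, is the same with any normalizer. Over the 372 miRNAs the change and the outside level correlated with a Spearman rho of 0.53 (Pearson r 0.51), given as a description since the miRNAs share the same 2 arrays.

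**Figure D2:**
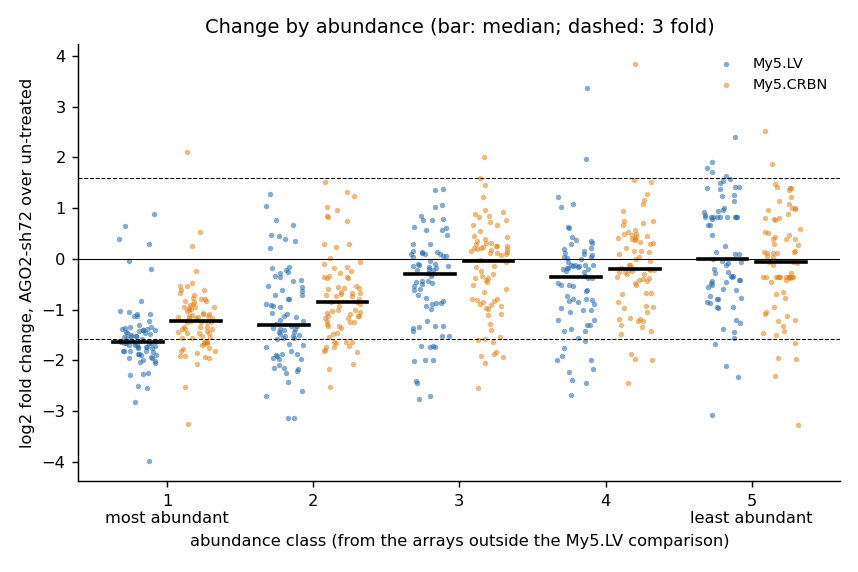
Log2 fold change with AGO2-sh72 (vertical) by abundance class (horizontal) in My5.LV (blue) and My5.CRBN (orange); each point is a miRNA, bars are medians and dashed lines mark 3 fold. In My5.LV the bars go from -1.63 in class 1 to -0.01 in class 5, and in My5.CRBN from -1.22 to -0.06.

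Among the 10 most abundant miRNAs, 9 were lower by more than the spread of the control wells and 1 was not. With the global mean as normalizer, which raises every log2 value by 0.86, fewer would pass that spread. miR-21-5p would then not be below 0. miR-142-3p, a miRNA of blood cells, had Ct 16.6 un-treated and 18.6 with AGO2-sh72 (log2 fold change -1.12). miR-21-5p, widely expressed in tumour cells, had the smallest decrease of the 9, with Cts of 18.0 and 19.7 (-0.83). The other 7 decreases were those of miR-16-5p (-1.30), miR-20a-5p (-1.40), miR-195-5p (-1.42), miR-19a-3p (-1.51), miR-19b-3p (-1.64), let-7f-5p (-1.69) and miR-106b-5p (-1.87). Thus 3 of the 10 were past 3 fold, beside 53.3% of class 1, in which all 10 lie, and 23.7% of all miRNAs. miR-720, a fragment of a transfer RNA that was once listed as a miRNA, had Ct 16.9 un-treated and 17.1 with AGO2-sh72 (log2 fold change 0.65).

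Besides miR-720, 5 miRNAs of class 1 had log2 fold changes above -0.5, and they are named here after their values were seen. They were miR-191-3p (0.87), miR-373-5p (0.40), miR-1290 (0.28), miR-324-5p (-0.04) and miR-423-3p (-0.20). miR-191-3p is the less abundant arm of its hairpin. With RNU6 alone as normalizer all 6 would be below 0, and with the global mean all 6 above 0.

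**Figure D3:**
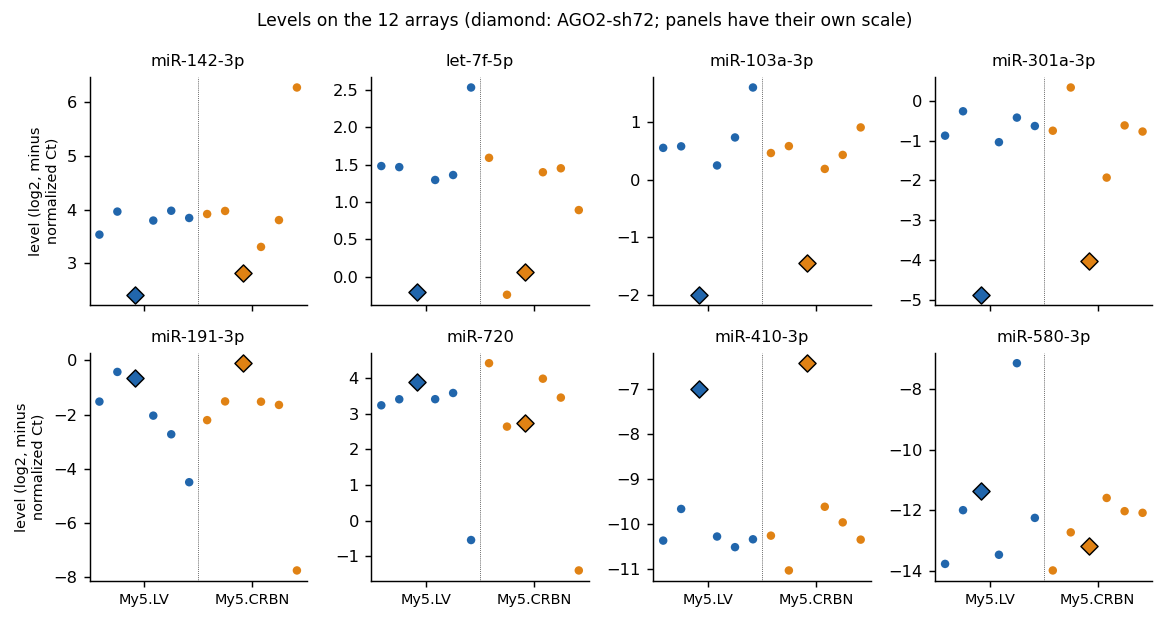
Level (minus the normalized Ct, log2 scale) of 8 miRNAs on the 6 My5.LV (blue) and 6 My5.CRBN (orange) arrays; diamonds are the AGO2-sh72 arrays and each panel has its own scale. miR-142-3p, let-7f-5p, miR-103a-3p and miR-301a-3p were lowest of the My5.LV arrays with AGO2-sh72, and miR-410-3p was highest of all 12 on the AGO2-sh72 arrays; the far values of miR-720 and miR-191-3p in My5.CRBN are those of lenalidomide at 120 h.

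The 6 My5.LV arrays, which also include AGO2 cDNA and lenalidomide (10 μM), show where the AGO2-sh72 array stood. It was the lowest of the 6 for 179 of 372 miRNAs, against 115 for lenalidomide at 120 h, 53 for AGO2 cDNA with lenalidomide and 1 for AGO2 cDNA alone. Of the 88 miRNAs at least 3 fold lower, 85 were lower on the AGO2-sh72 array than on all other My5.LV arrays. The 88 were picked by their low value on this same array, so the selection in part sets that count. For 15 of the 88 the un-treated array was also the highest of the 6. For the increases, 2 of the 7 were higher on the AGO2-sh72 array than on all other My5.LV arrays. Those conditions are not replicates of the un-treated cells, and with the median of the other 5 My5.LV arrays as control 87 miRNAs were lower and 2 higher.

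The abundant seed families were lower as groups, as were most abundant miRNAs: in class 1, where most of these families lie, 53.3% of miRNAs were at least 3 fold lower, with the median of -1.63 given above, and the family counts below are to be read against that share as well as the 23.7% of all miRNAs. All 9 let-7 and miR-98 miRNAs, known as brakes on growth genes, were lower, with a median of -1.66, and 6 of 9 were at least 3 fold lower (23.7% of all miRNAs). let-7a-5p went from Ct 18.97 to 21.55 (-1.76) and let-7d-5p from 20.3 to 23.1 (-2.05), and the smallest change was that of let-7b-5p (21.6 to 23.8, -1.40). Apart from miR-98-5p the members thus lay within a narrow range. The median stayed below 0 with the global mean as normalizer (-0.80).

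miR-130b-3p, miR-301a-3p and miR-454-3p were all at least 3 fold lower. Beside the value of miR-301a-3p given above, miR-454-3p had Cts of 21.5 and 24.6 (-2.26) and miR-130b-3p 22.5 and 25.1 (-1.82). miR-130a-3p, the fourth assay of the miR-130, miR-301 and miR-454 list, was much weaker (Ct 28.9 and 30.9) and had the smallest change, -1.21. Both miR-103a-3p and miR-107 were also past 3 fold, with a median of -2.38. miR-107 had a Ct of 26.3 and 29.3 (-2.21); miR-103a-3p, from which it differs at a single position, was the more abundant.

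The miR-17, miR-20, miR-93 and miR-106 miRNAs, which belong to oncogenic clusters and act on cell cycle genes, had a median of -1.83, with 3 of 5 at least 3 fold lower, near the 53.3% of class 1, in which all 5 lie. miR-17-5p had the largest change (Ct 18.9 and 21.6, -1.95) and miR-20b-5p the smallest (19.5 and 21.6, -1.33). Of the 2 miR-18 assays, miR-18a-5p went from Ct 19.5 to 22.6 (-2.25), while miR-18b-5p, from the related cluster of the X chromosome, had Cts of 24.6 and 25.5 (-0.17). The 2 miR-19 assays had a median of -1.58.

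In the families of miR-181, which act in lymphocyte development, and miR-30 the medians were -1.79 (3 of 4 at least 3 fold lower) and -1.76 (4 of 5), beside 53.3% of class 1 and 23.7% of all miRNAs. The miR-148 and miR-152 family had a median of -1.89, with 3 of 3 past 3 fold, from miR-148b-3p at -2.29 to miR-148a-3p at -1.74. The list of miR-23, miR-24, miR-26 and miR-27 had a median of -1.66 (4 of 7), from miR-24-3p at -1.87 to miR-27a-3p at -1.09. The miR-29 assays, known to act on collagens and on DNA methyltransferases, were close together, from -1.45 for miR-29a-3p to -1.22 for miR-29b-3p, and 0 of 3 were past 3 fold. The list of miR-15, miR-16, miR-195, miR-424 and miR-497, which targets BCL2, had a median of -1.38 (2 of 6), from miR-15a-5p at -2.01 to miR-497-5p at -0.54.

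Some families were split. Of the miR-25, miR-32, miR-92 and miR-363 list 2 of 5 were at least 3 fold lower, miR-32-5p and miR-25-3p (-1.72), whereas miR-92a-3p (Ct 19.3 and 21.2) was at -1.13 and miR-363-3p, near the detection limit, at 0.96. Of the miR-10, miR-99, miR-100 and miR-125 list (median -1.52, 3 of 7), miR-99a-5p and miR-100-5p were at -1.90 and -1.88, and miR-99b-5p, of the same seed ACCCGUA, was at 0.36. Both members above 0 were weakly expressed, miR-99b-5p with Cts of 30.1 and 30.5 and miR-125a-5p with 33.9 and 34.3 (0.46), but so was miR-10b-5p (-1.30). The miR-200, miR-141 and miR-429 list had a median of -1.51 (2 of 5), from miR-429 at -2.16 to miR-200a-3p at 0.16. The 4 assays of the miR-424, miR-503, miR-542 and miR-450 cluster had a median of -1.09, from miR-542-3p at -3.12 to miR-424-3p at 0.62.

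**Figure D4:**
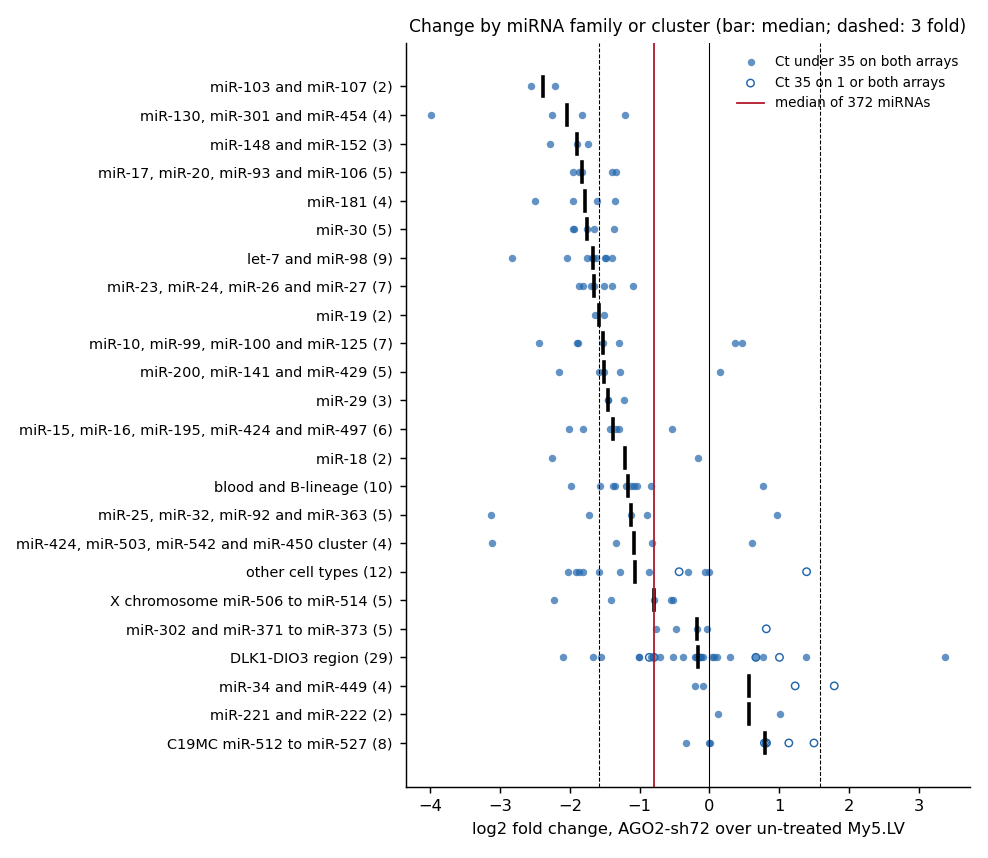
Log2 fold change with AGO2-sh72 in My5.LV (horizontal) for each member of 24 miRNA lists, with the number of assays in brackets; bars are list medians, the red line is the median of all miRNAs and open circles are miRNAs at Ct 35 on 1 or both arrays. Of the 24 medians 6 lie to the right of -0.79, all of weakly expressed lists.

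Of the 6 lists of weakly expressed miRNAs to the right in the plot by family, 5 had medians from -0.18 to 0.80, and the sixth, miR-506 to miR-514, had that of all miRNAs. miR-221 and miR-222 had log2 fold changes of 1.01 (Ct 30.3 and 30.1) and 0.13 (28.8 and 29.5), a median of 0.57 that falls to -0.41 with RNU6 as normalizer. The miR-34 and miR-449 list, whose miR-34 members are p53 targets, had a median of 0.57. Of its 4 assays 2 were at Ct 35 on 1 array, and the median also turned below 0 with RNU6 (-0.41). The embryonic miR-302 and miR-371 to miR-373 list had a median of -0.18 with 0 of 5 past 3 fold, from miR-372-3p at -0.77 to miR-373-3p at -0.04, and miR-302b-3p was at Ct 35 on both arrays; the median turns to 0.69 with the global mean. The list of the imprinted DLK1-DIO3 region of chromosome 14 had 2 of 29 at least 3 fold lower and 1 higher, beside 23.7% and 1.88% of all miRNAs and 13.5% lower in class 4, with a median of -0.17 that becomes 0.69 with the global mean. The miR-512 to miR-527 list of chromosome 19, of placental miRNAs, had a median of 0.80, but 5 of its 8 assays were at Ct 35 on 1 or both arrays, and with RNU6 the median is -0.18. The miR-506 to miR-514 list of the X chromosome had a median of -0.79 (0.076 when normalized on the global mean), from miR-513a-5p at -2.23 to miR-509-3p at -0.52.

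Of the 10 blood and B-lineage miRNAs 9 were below 0 and 1, miR-223-3p (Ct 29.9 and 32.7, -1.98), was at least 3 fold lower, where 23.7% of all miRNAs were; with a Ct cap of 32 it was at -1.33 and none of the 10 passed. The cells gave a strong signal for miR-142-3p, for miR-150-5p (Ct 19.8 and 21.7) and for miR-21-5p, but little for miR-155-5p (Ct 31.2 and 33.2). miR-486-5p, a red cell miRNA of that list, was the exception at 0.77. The summed level of the list, on the linear scale of 2 to the power of minus the normalized Ct, was 19.1 un-treated and 9.19 with AGO2-sh72, of which miR-142-3p made up 60.7% un-treated. Of the 12 miRNAs of other cell types 5 were at least 3 fold lower, beside the same 23.7%, and the markers of 1 tissue differed among themselves. Of muscle, miR-1 and miR-133a-3p were at -2.03 and -1.87 and miR-206 at -0.01. Of neurons, miR-9-5p was at -1.81 and miR-124-3p at -0.30. Of epithelium, miR-141-3p was at -1.59, miR-200c-3p at -1.29 and miR-205-5p at -0.06. Their summed level was 0.608 un-treated and 0.166 with AGO2-sh72, mostly miR-1 (73.3%, Ct 21.3 and 24.2). miR-144-3p of red cells was at Ct 35 un-treated and miR-122-5p of liver at Ct 35 with AGO2-sh72, and the part of these lists in the result was not tested.

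miR-451a is the miRNA whose short hairpin skips Dicer and is cut by AGO2 itself. It went from Ct 29.5 un-treated to 32.2 with AGO2-sh72, a log2 fold change of -1.91 (3.75 fold lower), where the median of its abundance class, class 4, was -0.35. Its signal was weak, and red cells are its known main source. In My5.CRBN cells its log2 fold change was -0.38.

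The 2 arms of a hairpin come from the same precursor, and their changes differed in part of the hairpins. Both arms were assayed for 86 hairpins, and the more abundant arm, by the 10 outside arrays, had the lower log2 fold change in 63 of them (73.3%). The median was -1.34 for the more abundant arms, of which 28 of 86 were at least 3 fold lower, and -0.25 for the less abundant arms, of which 8 were (23.7% of all miRNAs). The median gap between the arms was 0.83. A gap past 3 fold in favour of the less abundant arm was seen in 24 hairpins and the opposite in 3. Among the 35 hairpins with both arms under Ct 30 on both arrays, the more abundant arm had the lower value in 28, with a median gap of 0.80. Where the more abundant arm was the 5p arm it had the lower value in 39 of 51 hairpins, and where it was the 3p arm in 24 of 35.

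Of the 6 hairpins with the largest gap among the well detected, miR-181c came first. miR-181c-5p went from Ct 21.0 to 24.3 (-2.49), and miR-181c-3p from 27.3 to 26.8 (1.36). miR-191-5p went from Ct 19.996 to 22.39 (-1.58), and miR-191-3p stayed at 21.7 and 21.6 (0.87). On the AGO2-sh72 array the Ct of miR-191-3p was thus below that of miR-191-5p, and on the un-treated array above it. miR-195-5p had -1.42 and miR-195-3p 1.03. miR-93-5p had -1.83 and miR-93-3p 0.47. miR-27a-3p had -1.09 and miR-27a-5p, at Ct 29.9 and 29.6, 1.07. miR-425-5p had -1.47 and miR-425-3p 0.67. In all 6 the less abundant arm was above 0 and the more abundant arm below -1, and with RNU6 as normalizer each less abundant arm but miR-181c-3p, miR-195-3p and miR-27a-5p would be below 0. All 6 less abundant arms were higher still on the My5.LV AGO2 cDNA array, as for miR-181c-3p, with a normalized Ct of 7.15 un-treated, 5.63 with AGO2 cDNA and 5.78 with AGO2-sh72, and for miR-191-3p, with 1.52, 0.43 and 0.64, so a higher level than in un-treated cells was not particular to AGO2-sh72.

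**Figure D5:**
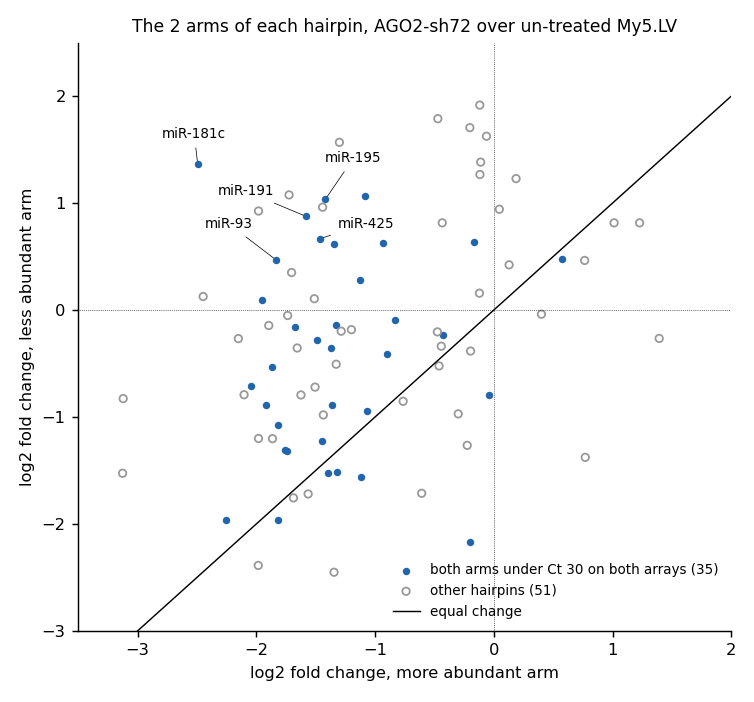
Log2 fold change of the less abundant arm (vertical) against that of the more abundant arm (horizontal) for 86 hairpins in My5.LV; filled points are the 35 hairpins with both arms under Ct 30 on both arrays. Of the 86, 63 lie above the line of equal change, with miR-181c farthest from it among the filled points.

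Less abundant arms are by definition weaker, so the arms were also compared at like abundance. In abundance class 2, where both kinds are well detected, 22 more abundant arms had a median log2 fold change of -1.47, 18 less abundant arms one of -0.91, and 34 miRNAs with no partner on the array one of -1.25. The median normalized Cts of these groups on the outside arrays lay between 5.0 and 5.37. In class 3 the medians were -0.44, -0.15 and -0.22, and in class 4 -0.12, -0.27 and -0.52. In class 1 they were -1.55, -0.35 and -1.66, with 2 less abundant arms, and in class 5, mostly near Ct 35, -0.46 (6), 0.46 (29) and -0.05 (40). The less abundant arms thus had the higher median in each class but class 4, where they had the lower one. By the name of the arm alone, 169 assays of 5p arms had a median of -1.03 and 154 of 3p arms -0.62. At least 3 fold lower were 49 (29.0%) and 30 (19.5%), beside 23.7% of all miRNAs. The 5p arms were also the more abundant, with a median outside normalized Ct of 7.25 against 8.13.

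Clusters of miRNAs within 10 kb of each other, which are often cut from 1 transcript, were split by arm in some cases and not in others. In the MCM7 cluster printed above, miR-106b-5p, miR-93-5p and miR-25-3p were at -1.87, -1.83 and -1.72. Their opposite arms miR-106b-3p, miR-93-3p and miR-25-5p were at -0.54, 0.47 and 1.08. In the miR-17 to miR-92a cluster of chromosome 13, 10 assays had a median of -1.52 and ranged from miR-18a-5p to miR-92a-1-5p (0.13). Of these, 4 were at least 3 fold lower (40%), beside 23.7% of all miRNAs and 53.3% of class 1, where most of them lie. In this cluster miR-18a-3p (-1.96) and miR-20a-3p (-1.53) were low with their partners, while miR-19a-5p was at 0.11. The 5 assays of the miR-182, miR-96 and miR-183 cluster on chromosome 7 were the most alike among clusters of 5 or more, from -1.76 for miR-182-3p to -1.40 for miR-96-5p, with both arms of miR-182 and miR-183 lower.

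Base composition went with the change at middle abundance. In abundance class 3, the median log2 fold change of 22 miRNAs with a GC content under 50% was -1.34, with 7 at least 3 fold lower, and that of 42 with a GC content of 50% or more was -0.15, with 3 lower. Their median outside normalized Cts were 8.01 and 8.23. Of all class 3 miRNAs 14.9% were at least 3 fold lower, and of all miRNAs 23.7%. In class 2 the medians were -1.51 (30 miRNAs) and -0.79 (39), in class 1 -1.66 (51) and -1.54 (15), and in class 5 0.11 (53) and 0.04 (10). GC-poor miRNAs were thus lower in classes 1 to 4 in median, with a small gap in class 1 (class 4, -0.62 and -0.24). With a GC content under 40% against at least 60%, the GC-poor were again lower in classes 1 to 3. In class 4 they were not, at -0.83 (11 miRNAs) against -0.89 (5). The corresponding class 3 values with AGO2-sh72 in My5.CRBN were -0.92 and 0.17. Over the 330 miRNAs with a sequence the Spearman rho of the change with GC content was 0.22, and a part of primer annealing or RNA recovery in it was not tested.

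A first base of U, which the pocket of AGO2 prefers, was the most frequent. The 144 miRNAs that begin with U had a median of -1.32 and 46 were at least 3 fold lower (23.7% of all miRNAs). The medians were -0.44 for 91 with A (19 lower), -0.45 for 67 with C (10 lower) and -0.18 for 28 with G (4 lower). The miRNAs with U were also the more abundant ones. Within class 1 the medians were -1.63 for U (43 miRNAs), -1.68 for A (12) and -1.65 for C (10). In class 3 they were -0.72 for U (24), -0.14 for A (23), -0.33 for C (9) and -0.19 for G (8). In class 2 U (31) was at -1.44, G (5) at -1.43, A (16) at -1.13 and C (17) at -0.80. In class 4 G (6) was at -0.70, lower than U (25) at -0.52, A (19) at -0.37 and C (18) at -0.20.

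Increases were few and weak in signal. miR-410-3p, of the imprinted DLK1-DIO3 region, went from Ct 30.5 un-treated to 28.0 with AGO2-sh72, a log2 fold change of 3.37 (10.4 fold higher). It was the one increase past 3 fold with a Ct under 30 on either array. It was at least 3 fold higher with each normalizer tried. miR-580-3p had Cts of 33.9 and 32.4 (2.40), miR-549a 31.99 and 30.85 (1.96) and miR-224-5p 34.8 and 33.7 (1.92). miR-34a-3p (1.71) and miR-205-3p (1.63) were past 3 fold as well, and miR-34c-5p, at Ct 35 un-treated and 34.0 with AGO2-sh72, was at least 3.46 fold higher. With a Ct cap of 32, 2 of the 7 increases, miR-410-3p and miR-549a, remained past 3 fold. Next in size, with a Ct under 35 on each array, were miR-10b-3p (1.57), miR-583 (1.42), miR-338-3p (1.38) and miR-300 (1.38). Of the 11 miRNAs named here, 9 had a Ct above 30 on both arrays, the exceptions being miR-410-3p and miR-300.

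The same knockdown in My5.CRBN cells was measured on a separate pair of arrays with no array in common. There the median log2 fold change was -0.52, the levels of 48 miRNAs (12.9%) were lower by 3 fold or more and those of 6 (1.61%) higher, and the SD of the control wells was 0.30. Lower by at least 3 fold in both cell lines were 37 miRNAs, 42.05% of the 88 of My5.LV and 77.08% of the 48 of My5.CRBN. Of the 88, 85 were below 0 in My5.CRBN, as were 220 of all 276 miRNAs below 0 in My5.LV. Not 2 fold lower in My5.CRBN were 20 of the 88. Abundance classes 1 to 5 had medians of -1.22, -0.85, -0.04, -0.19 and -0.06 in My5.CRBN. The more abundant arm had the lower value in 60 of the 86 hairpins there, and of the 24 hairpins with a gap past 3 fold in My5.LV 20 had a gap of the same sign. For single miRNAs the values side by side were -3.99 and -3.25 for miR-301a-3p, 3.37 and 3.84 for miR-410-3p, and -2.55 and -1.91 for miR-103a-3p. Farther from 0 in My5.LV were the values of miR-542-3p (-3.12 and -1.12), miR-181c-5p (-2.49 and -0.90), miR-567 (-2.68 and 0.13) and miR-199a-5p (-2.45 and -0.04). Farther from 0 in My5.CRBN were those of miR-155-5p (-1.20 in My5.LV, -3.27 in My5.CRBN), miR-720 (0.65, -1.66), miR-125a-5p (0.46, -1.31) and miR-223-3p (-1.98, -2.54), and miR-520g-3p (-0.34, -2.31) was at Ct 35 with AGO2-sh72 in My5.CRBN. With 1 array for each condition, no test of the difference between the cell lines was possible.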

How the data were processed

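Total RNA of OCI-My5 cells was converted to cDNA (miScript II kit) and measured on miScript SYBR Green miRNA PCR arrays, with 1 array for each condition. The values deposited by the authors are raw threshold cycles (Ct, in cycles) with no normalization. The table of fold changes, which the authors deposited as ratios to un-treated My5.LV, was not used. All 12 columns of the Ct table were mapped to samples by their labels. The array holds 372 miRNA assays and 12 control assays. Wells with no Ct or one above 35 were given a Ct of 35, the average of the RNU6-2 well and the 5 SNORD wells was subtracted, and at least 3 fold was counted as changed. Abundance classes came from the 10 arrays outside the comparison, families from 24 lists and from shared seeds, and clusters from RefSeq positions (GRCh38.p14).

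The miRNAs named were miR-451a, the 10 most abundant, the 15 largest decreases and 10 largest increases of miRNAs with a Ct under 35 on each array, those past 3 fold at Ct 35 on 1 array, the extremes of each list and the 6 hairpins with the largest arm gap. Other members of lists, hairpins and clusters were picked for the text with their values in view. The members, lists and rules were chosen with earlier results of these data known. No test was made, since each side has 1 array, so precision is that of 1 well. The calculation was tested on simulated data in which no well reached the Ct limit and the control wells moved together, unlike in these data. Alternatives were other normalizers, a Ct cap of 32, limits on Ct and a threshold of 2 fold. Python 3.11.15, NumPy 2.4.6, pandas 2.3.3 and Matplotlib 3.10.9 were used.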

Additional observations from a re-analysis of the deposited data

Results flagged for a closer look

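The log2 fold changes with AGO2-sh72 of 4 named miRNAs lay on opposite sides of 0 in the 2 cell lines, each by more than the spread of the My5.LV control wells. The value of miR-720 was 0.65 in My5.LV cells but -1.66 in My5.CRBN cells. In the same order miR-34a-3p was at 1.71 and -0.95, miR-583 at 1.42 and -1.04, and miR-372-3p at -0.77 and 0.96. The side of 0 depends on the normalizer for 2 of them, since in My5.LV miR-372-3p is at 0.10 with the global mean and miR-720 at -0.33 with RNU6 alone. With a Ct cap of 32 miR-372-3p would also be above 0 in My5.LV. On both My5.LV arrays miR-34a-3p and miR-583 were above Ct 32, so that cap would set their values. Each cell line has 1 array per condition, so the differences were not tested, and all but miR-720 were above Ct 30 on both My5.LV arrays.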

How the results depend on the processing

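The normalizer set the counts. With the global mean, 14 miRNAs were at least 3 fold lower and 47 higher, the median of all miRNAs turned to 0.073 and that of abundance class 1 was -0.76. With RNU6 alone the values were 201, 1, -1.77 and -2.61. With the 5 SNORD wells, which is also the setting without RNU6-2, 60 were lower and 13 higher. Leaving out each of the 6 control wells in turn gave 60 to 98 lower and 6 to 13 higher, with medians from -0.86 to -0.59. The 2 reverse transcription control wells gave 102 lower and 6 higher.

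A Ct cap of 32 left 77 lower, all among the 88, and 2 higher. It widened the gap between classes 1 and 5 to -2.44 and turned miR-153-3p to 0.67. Among the other calls it ended were those of miR-1324 (-0.80), miR-199a-5p (-0.045), miR-377-3p (-0.37), miR-376b-3p, miR-429 (-1.51) and miR-223-3p (-1.33). A threshold of 2 fold gave 161 lower and 27 higher. Among miRNAs under Ct 30 on at least 1 array 1 was higher. With the median of the other 5 My5.LV arrays as control, chosen after seeing the data, 2 were higher, both among the 7, and 87 lower, of which 74 were among the 88. Of hairpins with both arms under Ct 30 the more abundant arm had the lower value in 28.

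List medians past the control-well spread that turned were those of miR-221 and miR-222 (-0.41), miR-34 and miR-449 (-0.41) and miR-512 to miR-527 (-0.18) with RNU6, miR-506 to miR-514 (0.076) with the global mean, and miR-34 and miR-449 for members under Ct 30 (-0.15). Of those nearer 0, miR-302 and miR-371 to miR-373 turned to 0.69, 0.018 and 0.62, and DLK1-DIO3 to 0.69, 0.026 and 0.062, with the global mean, the 5 SNORD wells and a Ct cap of 32. No paired analysis was possible because each group has 1 array.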

Other observations

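The cel-miR-39 wells, an assay for a worm miRNA, read Ct 33.2 and 35 on the un-treated My5.LV array and 34.6 and 35 on the AGO2-sh72 array.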
